A study of Mus musculus with 20 samples.

Results

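Collagens are the proteins built around a triple helix of chains that give tissues their tensile scaffold. The 42 collagen genes described here are all genes on the array whose annotated symbol reads Col, a number, a and a number, out of 18195 genes that had at least 1 probe set naming a single gene. They were represented by 82 probe sets, and none of their symbols changed when names were updated. 11 encode fibrillar collagens, 6 encode the type IV collagens of basement membranes, and 25 belong to other classes.

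All mice were males of the inbred strain C57BL/6J, and total RNA came from their frozen cardiac ventricles. 10 of them were old (25 to 28 months) and 10 young (4 to 6 months). No treatment or engineered allele is named for either age. Each mouse gave 1 Affymetrix array, on which sets of short probes read each transcript near its 3′ end, and signals were summarised per probe set by GCRMA, a background correction and normalization method, as log2 values.

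Fibrillar chains (types I, II, III, V, XI, XXIV and XXVII) assemble into the rope-like fibrils between heart muscle cells, with types I and III as the bulk of the cardiac interstitium and type V as a regulator of fibril diameter. Type IV chains form the sheet-like network of the basement membrane that wraps each muscle cell and capillary. The other classes include type VI beaded filaments at the cell surface, the short-chain network of type VIII in vessels, fibril-associated collagens such as types XIV and XVI, and the multiplexins XV and XVIII of the basement membrane zone. In the heart, fibroblasts are the main source of fibrillar chains, while type IV chains also come from endothelial and muscle cells.

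Features of the arrays are given first, since they touch the values below. All 7 genes on the fixed list of ventricular muscle markers were tested and none was called. Their summed level lay between 17.74 and 17.96 in old arrays and 17.82 and 17.99 in young ones. It is set mostly by the brightest genes such as Myh6 and is no test of which heart chamber was sampled. The atrial myosin light chain gene Myl7 was at 12.13 to 14.55 in 7 old arrays, although the labels give ventricle throughout. It was at 2.36, 8.27 and 6.58 in old replicates 1, 2 and 7 and at most 2.44 in any young array. The arrays also fell into 5 sets of 4, each with 2 old and 2 young arrays, when deviations from the age group means were clustered. No batch is named in the labels, and this grouping was found in the measured values alone. Results are therefore given with all arrays, and beside them without the 7 old arrays with Myl7 above 10, which leaves 3 old arrays against 10 young ones. The 3 are replicates 1 and 2 of array set 1 and replicate 7 of set 4, so this smaller fit is not balanced by set. Replicate 1 was also the lowest old array for many collagen genes, among them Col1a1, Col3a1 and Col4a1. Irx4, the ventricular marker with the smallest p, differed by −0.58 (old minus young, limma adjusted p = 0.0845) with all arrays. Without those 7 old arrays it differed by −0.093. Myl3 and Myl2, next by p, were at −0.092 and −0.078 with all arrays and at 0.014 and −0.026 without the 7. Of the list, Actc1 (0.021) alone had an estimate above 0 with all arrays.

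Most collagen genes that the hearts expressed measurably did not pass the test for an age difference, and neither did most of all genes tested. Of the 42 genes, 17 passed the filter (log2 value above 4 in at least 10 of the 20 arrays), and 3 of these were called higher in old with limma at an adjusted p under 0.05 over all 9275 genes tested, while 0 were called lower. Col14a1, Col8a1 and Col5a2 were the 3, and among all genes tested 11.2% were called higher and 7.49% lower. At an unadjusted limma p under 0.05, 4 collagen genes were higher and 2 lower (Col5a3 and Col15a1), where 17.6% of all genes were higher and 14.1% lower. After quantile normalization the same 3 were called higher and Col5a3 lower, while the balance over all genes turned, with 8.72% higher and 11.4% lower. With the array sets as a block, 4 were called higher (Col1a2 joined) and 2 lower, where 19.4% and 16.7% of all genes were. All 17 had at least 9 arrays above the filter in each age group, so none passed through 1 group alone. The median log2 difference, old minus young, was 0.11 over the 17, with 13 estimates above 0, and 0.0088 over all genes tested. Without the 7 old arrays the median was −0.05 with 5 of 17 above 0, and Col14a1 and Col8a1 were still called, where 2.25% of all genes were called higher and 0.679% lower. With an atrial index built from Myl7 and Sln as a covariate the same 2 were called, where 2.81% of all genes were higher and 0.927% lower. No collagen gene had every old array above every young one or every old one below, as 1.36% and 0.42% of all genes tested did. In whole ventricle, fewer cells of a type and less RNA per cell cannot be told apart.

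**Figure D1:**
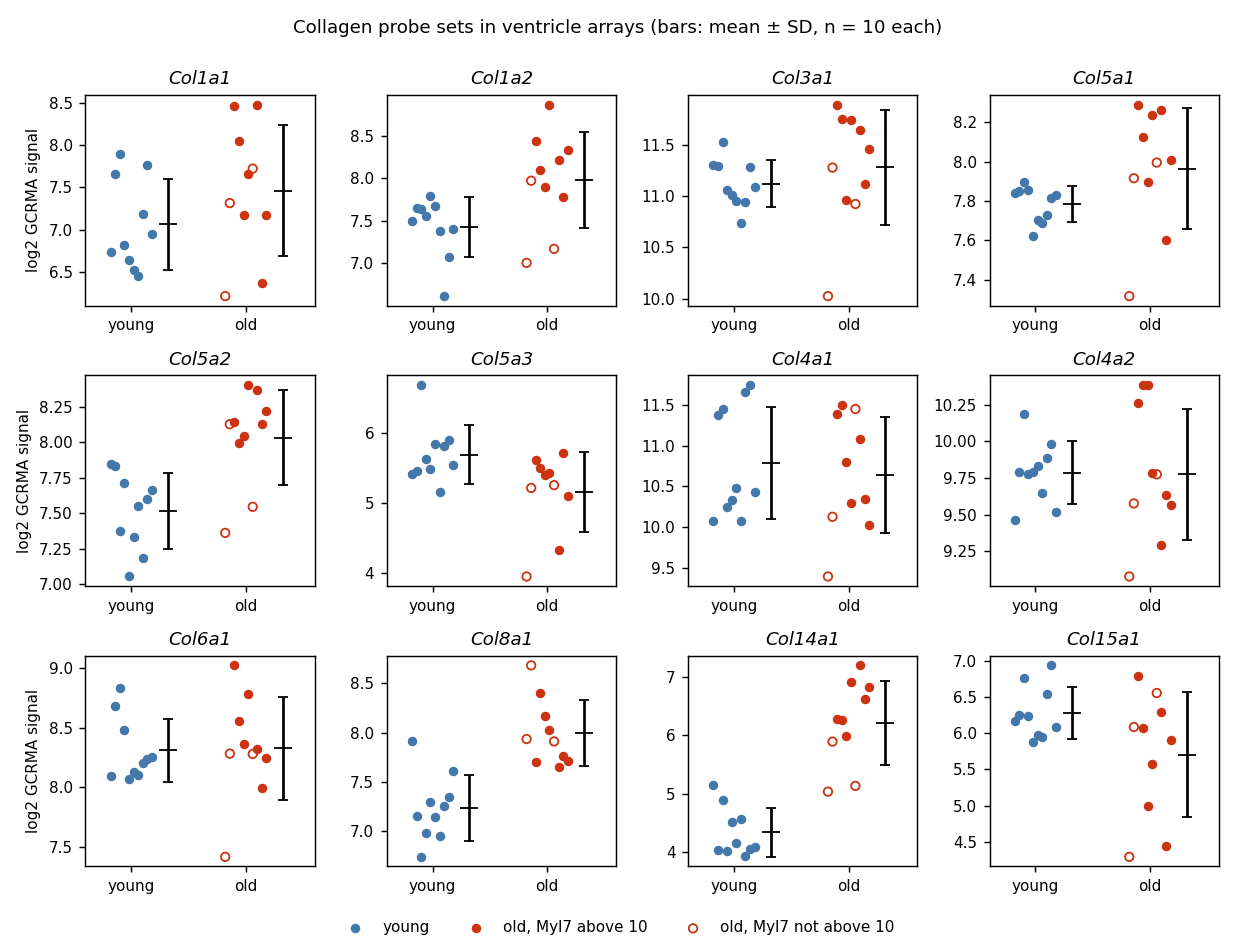
Log2 GCRMA signal of 12 collagen genes in each array, with young arrays in blue and old arrays in red, open where Myl7 was not above 10; bars give the mean ± SD (n = 10 each). Old arrays of Col14a1 lay between 5.04 and 7.19 against 3.93 to 5.15 in young, while Col4a1 and Col6a1 overlapped between the ages, each with 2 old arrays below every young one.

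Col14a1 encodes the type XIV chain, a fibril-associated collagen that sits on the surface of type I fibrils. Its log2 value was 5.04 at the lowest, 6.27 at the median and 7.19 at the highest in old arrays, and 3.93, 4.12 and 5.15 in young arrays. 8 of the 10 old arrays lay above every young array, and old replicates 1 and 7 lay just below the highest young one. The difference was 1.87 ± 0.24 (SE, n = 10 each; adjusted p = 1.42e-05), a 3.66-fold higher signal with a 95% interval of 2.58 to 5.19. It was positive in each of the 5 array sets, from 0.85 to 2.44. Without the 7 old arrays it was 1.01 ± 0.26 (SE; adjusted p = 0.0456), so the estimate was smaller by over 1.5 times and the call held. With the atrial index in the fit it was 1.21 (adjusted p = 0.00566). A second, dimmer probe set was never above 4 and was at 3.15 in old and 2.48 in young, and a further one was at the floor in both groups.

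Col8a1 encodes the α1 chain of type VIII collagen, a short-chain collagen of vessel walls that forms open networks. Old arrays ran from 7.65 through a median of 7.92 to 8.68, and young arrays from 6.74 through 7.20 to 7.91. 5 old arrays lay above every young array, and young replicate 11 reached into the old range. The difference was 0.75 ± 0.15 (SE, n = 10 each; adjusted p = 0.000995), or 1.69-fold with a 95% interval of 1.37 to 2.08. Of the 3 called genes, Col8a1 was the one whose estimate was no smaller when atrial transcripts were taken into account. It was 0.94 ± 0.22 (SE; adjusted p = 0.0305) without the 7 old arrays and 0.86 (adjusted p = 0.0128) with the atrial index. The old array with the highest value, replicate 2 at 8.68, was among the 3 with Myl7 not above 10, and the difference was positive in all 5 array sets (0.48 to 1.10). The second Col8a1 probe set differed by 0.52 and did not pass in the fit over 15304 probe sets (adjusted p = 0.095). Col8a2, the partner chain, was not above 4 in any array.

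Col8a1 is the called member with an entry in the RefSeq promoter table (build GRCm38.p6). The 250 bases before its transcription start, at chr16:57754738-57754987 on the minus strand, are printed because this gene was called in every setting tried. Capitals mark the GC box letters GGGCGG on either strand.
Col8a1: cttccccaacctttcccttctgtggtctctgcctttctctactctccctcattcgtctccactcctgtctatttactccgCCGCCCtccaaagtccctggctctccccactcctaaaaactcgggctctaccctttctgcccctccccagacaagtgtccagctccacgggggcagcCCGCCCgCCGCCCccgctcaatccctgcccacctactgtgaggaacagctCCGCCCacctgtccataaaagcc
The window held 4 such matches, starting 170, 73, 66 and 23 bases before the start, and neither TATAAA nor CCAAT on either strand. Of all 32851 promoter windows of the same length, 32.7% held GGGCGG, 33.8% CCAAT and 12.4% TATAAA, and among the 14 tested collagen genes with an entry 8, 6 and 1 did. These are letter matches and no measurement of a bound factor.

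Among the fibrillar collagens, Col5a2 was called and the major chains of types I and III were not. Of 11 genes 6 were tested, 5 of them with estimates above 0 and a median difference of 0.29. The 1 call among these 6 stands beside 11.2% of all genes called higher. Col5a2, the α2 chain of type V, ran from 7.36 through 8.13 to 8.41 in old arrays and from 7.05 through 7.57 to 7.85 in young ones, with 8 old arrays above all young ones. It rose by 0.52 ± 0.13 (SE, n = 10 each; adjusted p = 0.00878), or 1.43-fold, and its 2 probe sets gave 0.52 and 0.53. This call was not held without the 7 old arrays (0.16 ± 0.19, SE; adjusted p = 0.71) or with the atrial index (0.27, adjusted p = 0.375). The 2 old arrays inside the young range were replicates 1 and 7, both with Myl7 not above 10.

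Type I collagen, the main protein of scar tissue, is assembled from the Col1a1 and Col1a2 chains. Col1a1 spanned 6.21 to 8.48 in old arrays (median 7.49) and 6.45 to 7.90 in young ones (median 6.89), so the groups overlapped over most of their range. Its difference was 0.40 ± 0.27 (SE, n = 10 each; adjusted p = 0.332) with a 95% interval of −0.17 to 0.97, and 0.022 (adjusted p = 0.983) without the 7 old arrays. The second Col1a1 probe set was at −0.03. Col1a2 was at 7.005 to 8.87 in old (median 8.03) and 6.61 to 7.80 in young (median 7.53), with 7 old arrays above all young ones. Its difference of 0.55 ± 0.20 (SE; adjusted p = 0.0526) lay just outside the threshold, and without the 7 old arrays it was −0.05 (adjusted p = 0.943). Its second probe set was at 0.31.

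Col3a1, whose homotrimer mixes with type I in thin, compliant fibrils, was at 10.03 to 11.89 in old arrays (median 11.37) and 10.73 to 11.52 in young ones (median 11.08). The spread of the old arrays covered the young ones on both sides, and old replicate 1 stood lowest. The difference was 0.16 ± 0.18 (SE, n = 10 each; adjusted p = 0.584; 95% interval −0.21 to 0.53), and −0.38 (adjusted p = 0.386) without the 7 old arrays. Col5a1, the α1 chain of type V, was at 7.32 to 8.29 in old (median 8.001) and in a narrow band of 7.62 to 7.90 in young (median 7.82), a difference of 0.18 ± 0.11 (SE; adjusted p = 0.248). 7 old arrays lay above and 2 below all young ones. Col5a3, a further type V chain, had the opposite sign. It was at 3.94 to 5.71 in old (median 5.32) and 5.15 to 6.69 in young (median 5.58), a difference of −0.54 ± 0.21 (SE; adjusted p = 0.0729), and it passed with the array sets as a block (adjusted p = 0.0365). It was −0.89 without the 7 old arrays (adjusted p = 0.126). Col5a1 was then at −0.041.

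**Figure D2:**
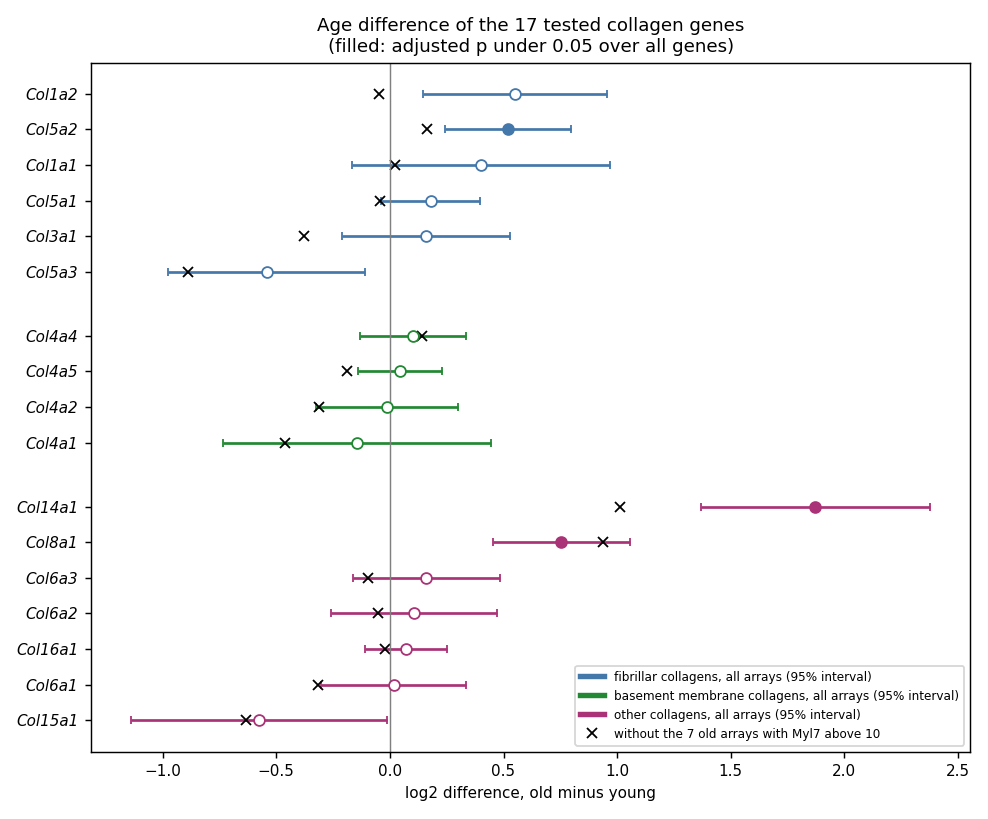
Log2 difference, old minus young, of the 17 tested collagen genes with the 95% interval of the limma fit, grouped as fibrillar, basement membrane and other collagens; filled circles passed the test over all genes and crosses give the estimate without the 7 old arrays with Myl7 above 10. The crosses of Col1a2 (−0.05), Col5a2 (0.16) and Col3a1 (−0.38) lie left of their circles, and that of Col8a1 (0.94) lies to the right.

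The basement membrane collagens showed no called difference in either direction. Of 6 genes, 4 were tested, with a median difference of 0.02 and a range of −0.15 to 0.10. Of all genes tested, 11.2% were called higher and 7.49% lower. Col4a1 and Col4a2, whose chains form the common type IV trimer of most basement membranes, were at −0.15 ± 0.28 (SE, n = 10 each; adjusted p = 0.769) and −0.01 ± 0.15 (adjusted p = 0.965). Col4a1 ran from 9.40 through 10.57 to 11.50 in old arrays and from 10.07 through 10.46 to 11.74 in young ones. Col4a2 ran from 9.08 through 9.71 to 10.38 in old and from 9.47 through 9.79 to 10.19 in young. Neither gene separated the ages, and the 95% intervals were −0.74 to 0.44 for Col4a1 and −0.32 to 0.30 for Col4a2. Col4a1 values fell into a high and a low cluster within the young arrays, with replicates 12, 13, 18 and 19, which make up the young arrays of array sets 2 and 4, at 11.37 to 11.74 and the others at 10.07 to 10.48. Of the variance of Col4a1 within the age groups, 89.0% lay between the 5 sets. Col4a5, a chain of the basement membranes of kidney and smooth muscle, was at 0.05 ± 0.09 (SE; 95% interval −0.14 to 0.23), the tightest interval of the class, and Col4a4 was at 0.10 ± 0.11. Without the 7 old arrays the class median was −0.25, with Col4a1 at −0.46 and Col4a2 at −0.31 and no gene called. Of the old arrays left, replicates 1 and 2 belong to array set 1 and replicate 7 to set 4, while the young arrays cover all 5 sets. The sets were not in that fit, so differences between sets and between ages cannot be told apart in it.

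Type VI collagen, which anchors cells to the surrounding matrix as beaded filaments, differed little. Col6a1 was at 7.42 to 9.02 in old arrays (median 8.30) and 8.07 to 8.83 in young ones (median 8.22), a difference of 0.02 ± 0.15 (SE, n = 10 each; adjusted p = 0.955). Col6a2 was at 6.96 to 8.52 in old (median 7.96) and 7.21 to 8.01 in young (median 7.79), and Col6a3 at 6.53 to 8.06 (median 7.65) and 7.0 to 7.85 (median 7.46). Their differences were 0.11 ± 0.18 (SE; adjusted p = 0.727) and 0.16 ± 0.16 (adjusted p = 0.516). For all 3 genes the young range lay inside the old one, with old replicate 1 the lowest array of Col6a1 and Col6a3. Their differences without the 7 old arrays were −0.31, −0.050 and −0.094, none called. Col16a1, a fibril-associated collagen, was at 0.07 ± 0.09 (95% interval −0.11 to 0.25).

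The multiplexins XV and XVIII carry cleavable C-terminal domains, restin and endostatin, that are known to restrain vessel growth. Col15a1 was at 4.29 to 6.80 in old arrays (median 5.99) and 5.88 to 6.94 in young ones (median 6.20), with 4 old arrays below every young one. The difference was −0.58 ± 0.27 (SE, n = 10 each; adjusted p = 0.147), it was below 0 in all 5 array sets, and it passed with the sets as a block (adjusted p = 0.0452). Leaving out the 7 old arrays gave −0.63 (adjusted p = 0.384). Col18a1 did not pass the filter, because it was above 4 in 5 old arrays and 0 young ones. Its brighter probe set was at 2.84 to 3.18 in young arrays and at 3.01 to 7.40 in old ones, with old replicates 8 (7.40) and 3 (6.10) far above the others and old replicates 1 (3.01), 4 and 10 inside the young range. The other Col18a1 probe set was highest in the same 2 arrays, at 7.72 and 5.74. In the fit without a filter, over 18194 genes, Col18a1 was called higher (1.26 ± 0.44, SE; adjusted p = 0.0456), where 7.16% of all genes were; its SD was 1.42 in old and 0.09 in young arrays, a difference in spread that the test does not model.

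The remaining 24 untested genes were at or near the floor of the scale. For 20 of the 25 genes that did not pass the filter, no probe set exceeded 4 in any array, among them Col2a1, Col11a1 and Col9a1 to Col9a2 of cartilage, Col10a1 of growth plate cartilage, Col7a1 and Col17a1 of skin, and Col4a3 and Col4a6. Besides Col18a1, the exceptions were Col6a4 (1 old array above 4), Col9a3 (1 young array), Col20a1 (2 young arrays) and Col27a1 (1 old and 2 young arrays). Without a filter, 6 of these genes were called lower (Col11a1, Col19a1, Col24a1, Col25a1, Col9a2 and Col9a3), with differences of −0.06 to −0.26 between group means under 4, where 16.7% of all genes were called lower.

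The 3 classes are set side by side here. The median difference was 0.29 for fibrillar collagens (1 of 6 called), 0.02 for basement membrane collagens (0 of 4) and 0.11 for other collagens (2 of 7). Over all genes tested the median was 0.0088, with 11.2% called higher and 7.49% lower. Classes this small cannot be told from those shares by their counts. Averaged over a class, the log2 level was 7.98 ± 0.43 in old arrays and 7.77 ± 0.20 in young arrays for the fibrillar class, 8.46 ± 0.28 and 8.46 ± 0.21 for basement membrane and 6.99 ± 0.36 and 6.65 ± 0.13 for the other class (SD, n = 10 each). The SD was the larger one in old arrays in each class. The lowest old levels, 6.98 for the fibrillar and 7.85 for the basement membrane class, were those of replicate 1. How far this 1 array sets the larger SD was not tested. After quantile normalization the medians were 0.24, −0.02 and 0.07, and −0.06 over all genes tested. Without the 7 old arrays the class medians were −0.04, −0.25 and −0.05. The 3 old arrays left include replicate 1, the lowest old array of every tested type I, III and V chain. It was also lowest for Col4a1, Col4a2, Col4a5, Col6a1 and Col6a3. For Col1a1 it was at 6.21, against 7.31 and 7.72 in replicates 2 and 7. For Col4a1 it was at 9.40, against 10.13 and 11.45. The part of this 1 array in these medians was not tested. The difference between the classes was not tested.

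Chains of one protein, or of one fibril, varied together from array to array for 4 of the 5 pairs examined. After removal of the age group means, Pearson's r over the 20 arrays was 0.76 for Col1a1 with Col3a1, 0.72 for Col6a1 with Col6a2, 0.65 for Col4a1 with Col4a2 and 0.62 for Col5a1 with Col5a2, but 0.31 for Col1a1 with Col1a2. Spearman's rho was 0.67, 0.58, 0.72, 0.62 and 0.26 in the same order. Permutation p-values for r (100000 resamples within age groups) were 0.00018, 0.00105, 0.00232, 0.00885 and 0.233, and 0.0009, 0.00262, 0.00387, 0.0111 and 0.233 adjusted over the 5 pairs. Those for rho were 0.00236, 0.00935, 0.00056, 0.0055 and 0.291. The resampling, here and below, ignored the 5 array sets, which held 89.0% of the variance of Col4a1 within age groups and 71.8% of that of Col1a1. These p-values therefore do not separate variation between mice from variation between sets. Without the 2 arrays farthest from the median of the first gene, r was 0.71, 0.53, 0.66, 0.55 and 0.21. With array set means removed as well, r was 0.83, 0.86, 0.83, 0.78 and 0.88, so the type I pair had the lowest of the 5 values before and the highest after. The clustering that defined the sets used these arrays and genes, and the removal leaves fewer independent values than 20, so these last values are a description. A pair from different proteins, Col1a1 with Col4a1, added after seeing the data, had r = 0.81 before the removal and 0.19 after it.

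**Figure D3:**
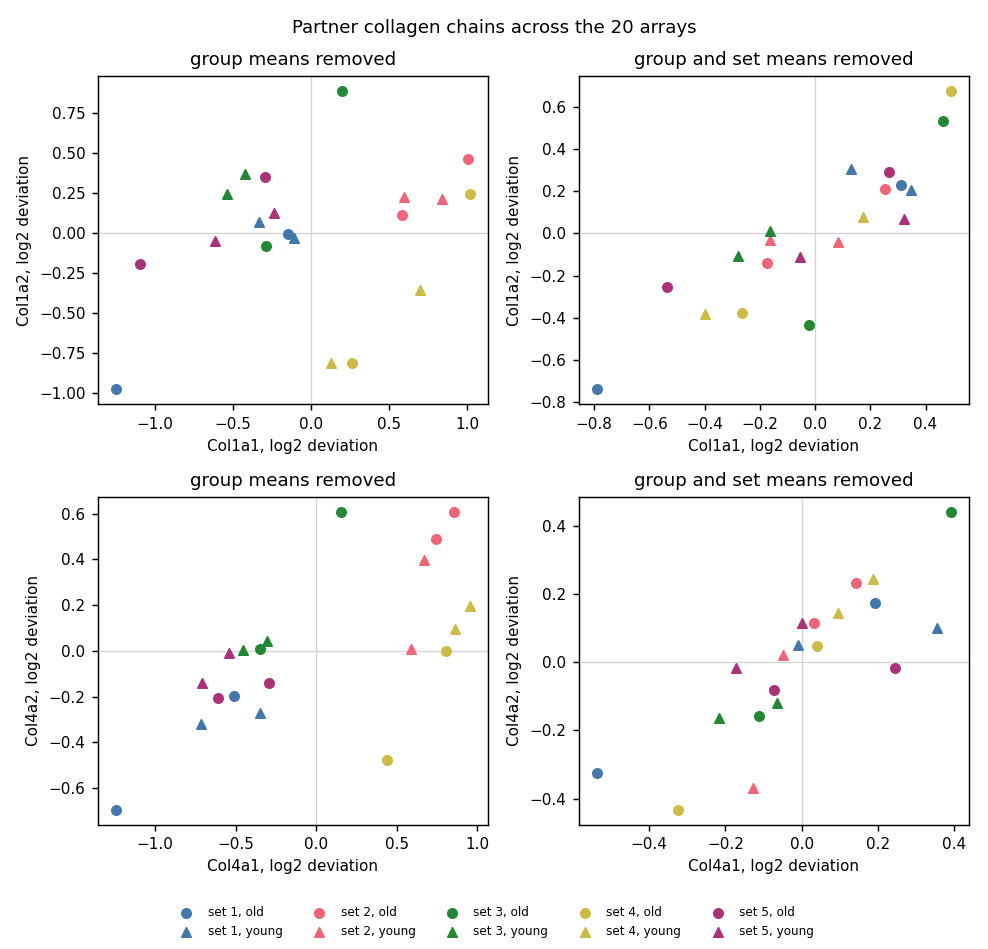
Log2 deviations of Col1a1 against Col1a2 (top) and Col4a1 against Col4a2 (bottom) in the 20 arrays, with age group means removed (left) and array set means removed as well (right); colours mark the 5 array sets, circles old and triangles young arrays. For Col1a1 and Col1a2 the points scatter on the left (r = 0.31) and line up on the right (r = 0.88).

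Col4a1 and Col4a2 lie head to head, and in the RefSeq table (GRCm38.p6) their transcription starts overlap by 22 bases at chr8:11312805-11312826. The run is shown on the strand of Col4a2 because it belongs to the first bases of both transcripts, with Col4a1 read leftwards from its right end and Col4a2 rightwards from its left end.
Col4a1 and Col4a2: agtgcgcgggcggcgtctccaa
The levels of this pair were correlated in each age group, with r = 0.67 over the 10 old arrays and 0.74 over the 10 young ones (permutation p = 0.0394 and 0.0131; adjusted p = 0.0492 and 0.0327 over the 5 pairs). Spearman's rho was 0.67 and 0.88, and in old arrays it missed the threshold after adjustment (permutation p = 0.0385 and 0.00151; adjusted p = 0.0654 and 0.00755).

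Lists of genes that make, bind, cut or accompany collagens are given beside the 3 of 17 collagen genes called. Among all genes tested 11.2% were called higher and 7.49% lower. The difference between lists was not tested. Of 15 tested fibril partners 13 were called higher and 0 lower, with a median difference of 1.07. Fmod, a small proteoglycan that binds fibrils, had a log2 level of 7.09 ± 1.37 in old against 3.65 ± 0.23 in young arrays, and Postn, a matricellular protein of activated fibroblasts, 10.38 ± 0.62 against 8.67 ± 0.27 (SD, n = 10 each; adjusted p = 4.23e-06 and 4.55e-06). Thbs1, a matricellular glycoprotein, rose by 2.64 and Bgn, biglycan, by 1.26. Fmod and Thbs1 had young means under 4 and passed the filter through the old arrays, where only a rise could be seen. When the 7 old arrays were left out, 4 of the 15 were called higher, Fmod, Postn, Thbs1 and Fn1, the fibronectin gene, where 2.25% of all genes were.

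Procollagen is trimmed outside the cell and then crosslinked. Of 8 tested genes of procollagen processing and crosslinking 5 were called higher and 1 lower, with a median of 0.41. The shares over all genes were 11.2% and 7.49%. Pcolce and Pcolce2, enhancers of the removal of the procollagen C-terminal end, rose by 0.63 ± 0.12 (SE, n = 10 each; adjusted p = 0.00092) and 0.62 ± 0.17 (adjusted p = 0.012). The lysyl oxidase-like genes Loxl1 and Loxl3, whose family crosslinks collagen and elastin, rose by 0.61 and 0.47, and the crosslinking transglutaminase gene Tgm2 by 0.35; Loxl3 had a young mean of 3.98, at the edge of the filter. Pxdn, which crosslinks type IV collagen through sulfilimine bonds, fell by 0.30 (adjusted p = 0.0296). None of these 6 calls held without the 7 old arrays, where Tgm2 (0.38) and Pxdn (−0.30) kept their size, Pcolce was at 0.36, Pcolce2 at 0.40 and Loxl3 at 0.22, and Loxl1 was at 0.054.

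Of 11 tested collagen breakdown genes 7 were called higher and 0 lower, with a median of 0.60, where 11.2% and 7.49% of all genes were called. Mmp3, stromelysin, had a log2 level of 7.80 ± 0.78 in old against 4.98 ± 0.48 in young arrays (SD, n = 10 each; adjusted p = 3.23e-07), with no overlap between the ages. The metalloproteinase inhibitor genes Timp3 and Timp2 rose by 0.93 and 0.86, and Reck, a membrane-bound inhibitor, by 1.11, so the genes called higher held both proteases and inhibitors. The inhibitor gene Timp4 (−0.59, adjusted p = 0.147) and the protease gene Fap (−0.53, adjusted p = 0.0824) had the opposite sign and did not pass. Mmp3 (2.49, adjusted p = 0.00139) and Timp3 (0.59, adjusted p = 0.0187) held without the 7 old arrays. Among 9 collagen receptor genes 4 were called higher and 1 lower, beside the same shares over all genes. Cd44, a hyaluronan and collagen receptor of many migrating cells, rose by 1.74, Mrc1, a macrophage receptor that takes up collagen fragments, by 0.65, and Ddr1, a receptor kinase for collagen, by 0.70, while Itga1, the integrin chain that binds type IV collagen, fell by 0.51 (adjusted p = 0.0115). Cd44 (1.40, adjusted p = 0.004) and Mrc1 (0.80, adjusted p = 0.0127) held without the 7 old arrays, and Ddr1 was then at −0.09.

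Of the machinery that folds and hydroxylates procollagen in the endoplasmic reticulum, 2 of 16 tested genes were called higher and 0 lower, with a median of 0.17. Over all genes 11.2% were called higher and 7.49% lower, so the higher count was near the share of all genes. Fkbp14, a prolyl isomerase, rose by 0.41 and Plod3, a lysyl hydroxylase, by 0.58 (adjusted p = 0.0311 and 0.0371). Neither was called without the 7 old arrays, where Fkbp14 was as large (0.42) and Plod3 was at −0.026. The prolyl hydroxylase genes P4hb (0.33, adjusted p = 0.0614) and P4ha2 (−0.33, adjusted p = 0.0997) had opposite signs and did not pass. The non-collagen genes of the basement membrane had a median of −0.15, with 0 of 13 called higher and 4 lower. Lama5, a laminin chain of vessel basement membranes, had a log2 level of 5.99 ± 0.51 in old against 7.04 ± 0.39 in young arrays (SD, n = 10 each) and fell by 1.05 ± 0.19 (SE; adjusted p = 0.000555). Smoc2 fell by 0.54, Lama2, the main laminin chain around muscle cells, by 0.33 and Agrn, agrin, by 0.28. Without the 7 old arrays Lama5 was at −1.08 (adjusted p = 0.0556) and no gene of this list was called.

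**Figure D4:**
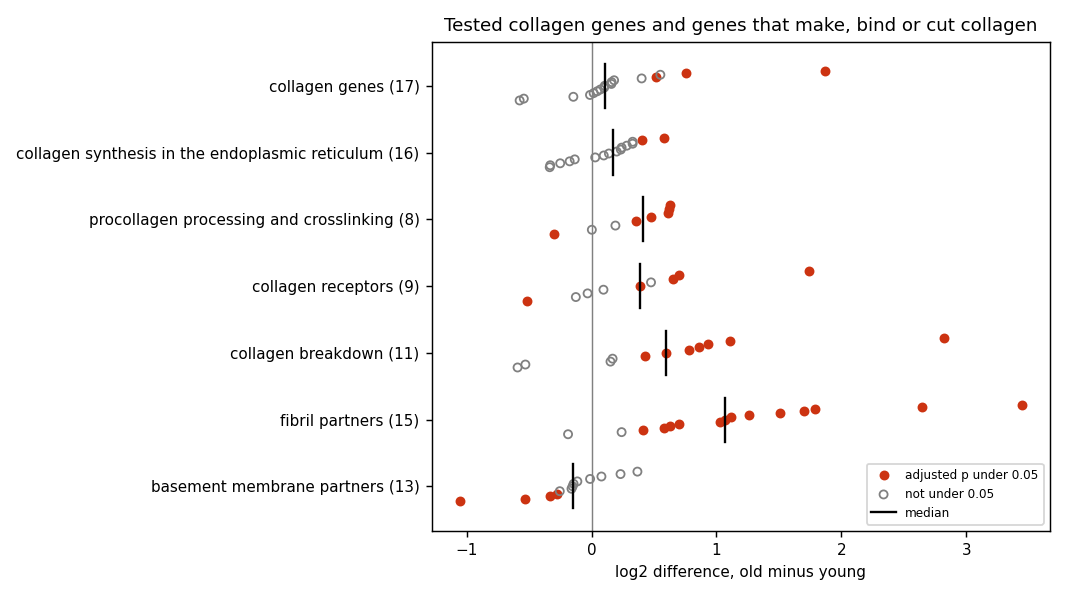
Log2 difference, old minus young, of each tested gene in the collagen group and in 6 lists of genes that make, bind, cut or accompany collagens, with the number tested in brackets; red points passed the limma test over all genes and black lines are medians. The medians lie at 0.11 for collagen genes, 0.17 for synthesis genes, −0.15 for basement membrane partners and 1.07 for fibril partners.

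Cell type markers moved in part with these genes. The counts below stand beside 11.2% of all genes tested called higher and 7.49% called lower. Of 10 tested fibroblast markers 9 were called higher, and their summed level was 14.14 to 14.97 in old arrays against 13.92 to 14.13 in young ones, with each marker above 4 in at least 1 array. 4 of these markers, Dcn, Lum, Dpt and Mfap5, are also fibril partners. Of the 10, Meox1 alone was called without the 7 old arrays, and the 3 remaining old arrays had sums of 14.14 to 14.60. The estimates of Mfap5 (1.12 to 1.11), Lum (0.63 to 0.71), Dcn (0.58 to 0.53) and Ddr2 (0.39 to 0.41) moved little with that step, while Gsn went from 0.46 to 0.067 and Pi16 from 0.79 to 0.18. Of 6 activated fibroblast markers 5 were called higher (summed level 10.76 to 13.74 in old and 10.01 to 11.59 in young, Cthrc1 never above 4), and of 6 valve and cartilage markers 4 were called higher (8.69 to 10.67 and 8.13 to 8.58, with Acan, Hapln1 and Tnmd never above 4). Of 8 endothelial markers 1 was called higher (10.91 to 11.91 in old and 11.14 to 11.55 in young), and of 8 pericyte and smooth muscle markers 1 was called lower (13.08 to 13.80 and 13.24 to 13.79). The latter list had a median difference of 0.19 and mixed signs. Cnn1, Tagln, Myh11 and Cspg4 were at 1.35, 1.25, 0.93 and 0.40. Kcnj8, Abcc9, Rgs5 and Pdgfrb were at −0.36, −0.34, −0.20 and −0.02, and Kcnj8 alone was called. Of 7 macrophage markers 6 were called higher (10.85 to 11.67 and 10.16 to 10.84), the 3 atrial muscle markers tested all were (10.72 to 16.60 and 10.03 to 12.39), and the single tested adipocyte marker, Car3, was (list sums of 5.86 to 14.81 and 4.53 to 7.13). Neither the 1 tested epicardial nor the 2 tested Schwann cell markers passed. When the 7 old arrays were left out, 4 valve and cartilage, 3 activated fibroblast, 3 macrophage and 1 adipocyte markers were called higher. That step left 2.25% of all genes called higher. It also left 0 atrial markers called, but the 7 arrays were chosen by the atrial gene Myl7, so this count is no finding. Myl4 was still 2.09 higher in the 3 old arrays left (limma adjusted p = 0.101), with Nppa at 0.33 and Stard10 at 0.014. Fmod, Cnmd, Comp and Car3 had young means under 4 and passed the filter through the old arrays, where only a rise could be seen. The part of these cell types in the collagen values was not tested.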

How the data were processed

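The samples were 20 single-colour oligonucleotide arrays, 10 old and 10 young, grouped by the sample titles; the series' design text calls both ages young, while titles and protocols separate them. The authors deposited 1 log2 value per probe set and array, made with GCRMA per the submitters' processing notes, whose version is not given in the sources used here. That values are log2 was inferred from their range, 0.976 to 16.0; depth has no meaning here, and the number of arrays limits the precision. GCRMA places undetected transcripts near a common floor, so differences between dim genes are compressed.

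Of 45101 probe sets, 34945 had 1 gene in the platform annotation, 932 several and 9160 others none, besides 64 controls. Symbols were updated by gene identifier to the GRCm38.p6 table, used for names. A probe set passed when it exceeded 4 in at least 10 arrays, and for each of 9275 genes the brightest passing probe set by mean was used. The age contrast was fitted with limma 3.58.1 (lmFit, eBayes; R 4.3.3) without covariates, Benjamini-Hochberg adjusted over all genes. Nothing says more of the mice than 1 array each, so p-values measure the spread between these arrays. The atrial index is the mean of the linear Myl7 and Sln values relative to their highest array; array sets came from average linkage clustering of 1 minus the correlation of deviations, divided into 5. The fit was tested on simulated data. The collagen genes, the pathway and marker lists (224 genes, 209 on the array) and the tests were chosen with earlier results of these data known. Described in full are the called collagen genes, 14 fixed ones and up to 4 genes with the smallest p per pathway list; others named were chosen after their values were seen. Col6a6, Col21a1 and Col28a1 were not analysed here. Summed levels are log2 of the sum of linear values over a list.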

Additional observations from a re-analysis of the deposited data

Results flagged for a closer look

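4 of 36 groups of 10 arrays, 18 collagen genes in each age group, held an array far from the others by Dixon's ratio of the gap to the range (above 0.466 for 10 arrays); chance gives about 1 in 20. In old arrays, Col3a1 in replicate 1 was at 10.03, with the next lowest at 10.92 (ratio 0.481). In young arrays, Col5a3 in replicate 13 was at 6.69, with the next highest at 5.90 (0.511), Col6a2 in replicate 17 was at 7.21, with the next lowest at 7.65 (0.551), and Col18a1 in replicate 14 was at 2.84, with the next lowest at 3.04 (0.579), both under the filter level of 4.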

How the results depend on the processing

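No paired analysis was possible because the old and young mice share no replicate numbers. Of the collagen calls, Col8a1 was made in every setting, Col14a1 in every one except a filter at log2 of 6, which removes it, and Col5a2 in all but the atrial index, alone or with the array sets, and the fit without the 7 old arrays with high Myl7; the cause was not tested. Col1a2 was called with arrays centred on the median of all probe sets, with a moderated fit with trend and robust settings, with the array sets as a block, at a filter of 6, and without old replicate 1, old replicate 7 or young replicate 15. Collagen genes called lower numbered 1 after quantile normalization or centring on the median of tested genes, 2 with the array sets as a block and 6 without a filter, which adds dim genes. Leaving out 1 array at a time gave 3 to 5 genes higher (5 without old replicate 1, where Col1a2 and Col5a1 joined) and 0 lower. Over the pathway lists 31 genes were called higher and 6 lower, where 11.2% and 7.49% of all genes were. The counts were 12 and 1 with the atrial index (2.81% and 0.927% of all genes) and 11 and 1 with index and sets. They were 8 and 0 without the 7 old arrays (2.25% and 0.679% of all genes). The lower count was 3 with centring on all probe sets and 11 without a filter.

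Among the collagen genes, signs turned for estimates that were not called; among the called pathway genes, Ddr1 (−0.091) and Plod3 (−0.026) turned without the 7 old arrays. Without the 7 old arrays the log2 differences were −0.046 for Col1a2, −0.38 for Col3a1, −0.19 for Col4a5, −0.041 for Col5a1, −0.31 for Col6a1, −0.050 for Col6a2, −0.094 for Col6a3 and −0.023 for Col16a1. With the atrial index they were −0.15 for Col3a1, −0.15 for Col4a5, −0.082 for Col6a1 and −0.033 for Col16a1, and with index and sets −0.25 for Col3a1, 0.046 for Col4a2, −0.21 for Col4a5, −0.051 for Col6a1 and −0.019 for Col6a2. Quantile normalization gave −0.016 for Col4a4, −2.05e-05 for Col4a5, −0.015 for Col6a1 and −0.050 for Col16a1, centring on tested genes −0.019 for Col4a5 and −0.048 for Col6a1, and centring on all probe sets 0.020 for Col4a2. With 1 array left out, Col4a2 ranged from −0.080 to 0.065 and Col6a1 from −0.060 to 0.12. The Col1a1 and Col1a2 correlation was 0.88 with set means removed, −0.0083 without the 7 old arrays and −0.21 in young arrays alone; Col5a1 with Col5a2 (0.57) and Col6a1 with Col6a2 (0.64) missed the threshold without the 7 old arrays, and the latter was 0.27 in young arrays alone. The number of arrays, and the floor for dim genes, limit what could be detected.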

Other observations

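One pair of chains from different proteins was added after seeing the data. Col1a1 and Col4a1 had r = 0.81 and rho = 0.72 over the 20 arrays with age group means removed (permutation p = 5e-05 and 0.00058), and r = 0.81 without the 2 arrays farthest from the median of Col1a1. With array set means removed as well, r was 0.19 (permutation p = 0.485). The same step moved Col1a1 with Col1a2 from 0.31 to 0.88.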
